A study of Homo sapiens with 6 samples.

Results

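The death receptor genes described here are CASP8, CASP10, FADD, CFLAR, TNFRSF10A, TNFRSF10B, FAS and TNFSF10. They are 8 of the 16306 genes in the deposited table, and all 8 were among the 12620 genes with enough counts to be tested. The list was chosen on the sh-NC and shRBM10 read counts of these same libraries, so the values below are a description of the 8 genes and carry no test. The samples were PC9 cells, a human lung adenocarcinoma line with an exon 19 deletion in EGFR that both groups share. The control group carried a non-targeting shRNA (sh-NC, 3 libraries) and the other group an shRNA against RBM10 (shRBM10, 3 libraries). RBM10 is an RNA-binding protein that acts on the choice of exons in spliced transcripts. More than one RBM10 shRNA was made, and the sources do not say which one these libraries carried. The labels name no treatment other than the shRNA, no time after it and no clone, and their extraction text is written for retina and names more than one library kit, although the cell line is given as PC9. The shRBM10 libraries are called A, B and C, because only A could be matched to a labelled replicate.

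When a ligand such as TRAIL or FAS ligand binds a death receptor, the receptor recruits the adaptor FADD through its death domain. FADD in turn recruits the initiator caspases 8 and 10 through death effector domains, and the caspases cut and activate each other. The CFLAR product, cFLIP, has the same domains without protease activity and competes for places in this complex. In epithelial tumour cells the balance of these proteins is known to set how readily TRAIL or FAS ligand kills the cell. Several of these genes, CASP8, CFLAR and FAS among them, give different proteins by alternative splicing.

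The libraries held between 16606401 and 18864241 counts on genes. RBM10 itself had 1578, 864 and 1628 counts with the control shRNA and 523, 537 and 700 with the RBM10 shRNA, a log2 fold change of -1.24 (SE 0.23, n = 3 per group, adjusted p = 0.100 in the edgeR quasi-likelihood test, adjusted by Benjamini and Hochberg). DESeq2 called it, at -1.26 and an adjusted p = 0.00157. All 6 epithelial markers on the list (EPCAM, KRT8, KRT18, KRT19, CDH1 and EGFR) were tested and summed to between 354327 and 615432 counts a library. Of 5 retina markers, 2 were in the table and summed to between 1 and 3 counts a library, while 5 of 6 immune, endothelial and fibroblast markers were in the table with sums of 1901 to 2618, of which CD68 alone held 1795 to 2442 and PTPRC 0 to 7. sh-NC replicate 2 stood apart: its normalization factor was 0.738 against 1.03 to 1.08 in the others, the median count of its detected genes was 181 against 290 to 334, and its EGFR count was 1890 against 11026 to 14601. The libraries also differed in how counts followed the GC content of genes, from a log2 slope of -0.53 per 10% GC in shRBM10 library A and -0.34 in library B to 0.15, 0.40 and 0.16 in the sh-NC libraries and 0.16 in shRBM10 library C. Fold changes of single genes below are therefore also given without sh-NC replicate 2 and with this trend removed. Transcript shares were not computed with the trend removed, so whether it affects them was not tested.

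TNFSF10, a ligand, and FAS, a receptor, were the members whose groups did not overlap, and both were higher in shRBM10. These are 2 of 8 members, where the groups of 30.1% of all genes tested did not overlap in one direction or the other. The other 6 members lay within overlapping ranges. In RNA from whole cultures, fewer cells with a transcript and less of it per cell cannot be told apart. Levels below are counts scaled to a common library size by edgeR's TMM factors, called normalized counts, and fold changes are shRBM10 against sh-NC on the log2 scale with the standard error of the edgeR fit. Of all genes tested, 51.6% had a fold change above 0, with a median of 0.03, against 6 of the 8 members with a median of 0.19. With the GC trend removed, 3 of the 8 members were above 0 and their median was -0.053.

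TNFSF10 encodes TRAIL, the ligand of both TRAIL receptors on this list. Its normalized counts were 16.3, 8.22 and 4.51 in the 3 sh-NC libraries and 77.0, 82.4 and 49.9 in shRBM10 A, B and C. Every shRBM10 library was above every sh-NC library, by a log2 fold change of 2.82 (SE 0.47), or 7.06-fold. These levels rest on few reads, 18, 6 and 5 in sh-NC against 75, 86 and 52 in shRBM10. The fold change was 2.65 without sh-NC replicate 2 and 2.24 with the GC trend removed, and it lay between 2.24 and 3.48 over 11 alternatives. In 5 of the 6 libraries between 94.4% and 100% of the TNFSF10 transcript counts lay on NM_003810, which codes for the full-length protein of 281 residues. In sh-NC replicate 3 all 5 counts lay on NM_001190942, which codes for 101 residues, a feature that was looked at after the values were seen.

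The TNFSF10 gene lies on chromosome 3 from 172505508 to 172523507 on the minus strand (GRCh38, GENCODE). The bases upstream of it are shown because this was the member with the largest difference, read 5′ to 3′ on the strand of the gene from chr3:172523508-172523680 (RefSeq, GRCh38.p14). Capitals mark the letters of GAAANNGAAA, the core of the interferon-stimulated response element, found here on the opposite strand 187 bases before the RefSeq start.
TNFSF10 upstream: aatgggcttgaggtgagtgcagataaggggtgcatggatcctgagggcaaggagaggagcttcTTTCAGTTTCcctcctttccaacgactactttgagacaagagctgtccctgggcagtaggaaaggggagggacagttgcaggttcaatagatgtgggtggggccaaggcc
Both strands were searched for GAAANNGAAA and for TTCNNNGAA, the letters of the STAT-binding GAS element, in windows of 300 bases around each start. The first was in 3.6% and the second in 7.7% of 34796 promoters. RefSeq windows were at hand for 5 of the 8 genes (12 windows: 3 each of CASP8 and FAS, 4 of CFLAR, 1 each of FADD and TNFSF10). The only other matches were in the most upstream of the CASP8 windows, with both letter sets. A match describes the letters and does not show that a factor bound there.

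FAS encodes the receptor of FAS ligand, a cousin of TRAIL. Its normalized counts were 19, 17.8 and 24.4 in the 3 sh-NC libraries and 57.5, 52.7 and 26.9 in shRBM10 A, B and C. The groups did not overlap, but library C lay just above the highest sh-NC library. The log2 fold change was 1.15 (SE 0.38), or 2.22-fold, and it was 0.98 without sh-NC replicate 2. With the GC trend removed it was 0.50 (SE 0.23), less than 1 on the log2 scale, and the groups still did not overlap.

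The TRAIL receptors TNFRSF10A (DR4) and TNFRSF10B (DR5) both carry a death domain and lie 121 kb apart on chromosome 8. TNFRSF10A had normalized counts of 291, 379 and 334 in sh-NC and of 300, 219 and 262 in shRBM10, a log2 fold change of -0.36 (SE 0.27). Its groups overlapped through sh-NC replicate 1 and shRBM10 library A. When sh-NC replicate 1 or 2 or shRBM10 library A or C was left out, all remaining shRBM10 values were below all sh-NC values, in fits where the groups of 32.5% to 63.5% of all genes did not overlap in one direction or the other. TNFRSF10B had 1720, 1343 and 1780 in sh-NC against 1943, 1712 and 2054 in shRBM10, a log2 fold change of 0.24 (SE 0.22). It had its lowest value in sh-NC replicate 2, and without that library its fold change was 0.04. The sign of TNFRSF10A was negative and that of TNFRSF10B positive in all 11 alternatives. With the GC trend removed, TNFRSF10B had a log2 fold change of 0.37 (SE 0.17) with groups that did not overlap, and TNFRSF10A one of -0.24 (SE 0.19). In the transcript table TNFRSF10B counts split between NM_003842 (440 residues) and NM_147187 (411 residues), and the first held 59.8% ± 4.0 of them in sh-NC (SD, n = 3) and 60.6% ± 11.1 in shRBM10.

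FADD, the adaptor, had normalized counts of 1393, 2450 and 1409 in the 3 sh-NC libraries and of 1172, 1400 and 1545 in shRBM10 A, B and C. On this scale sh-NC replicate 2 stood alone and the other 5 libraries covered 1172 to 1545, and its TMM factor was the lowest of the 6. Scaled by library size alone it had 1793 against 1254 to 1582, and in TPM it was the lowest of the 3 sh-NC libraries (69.9, 62.7 and 71.9). The log2 fold change, -0.35 (SE 0.28) with all libraries, was -0.11 (SE 0.19) without that replicate and -0.07 with the GC trend removed.

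CASP8 and CASP10 encode the initiator caspases. CASP8 had normalized counts of 743, 1297 and 737 in sh-NC and of 1221, 969 and 856 in shRBM10, a log2 fold change of 0.13 (SE 0.29). CASP10 had 246, 471 and 275 in sh-NC and 439, 316 and 343 in shRBM10, a log2 fold change of 0.15 (SE 0.32). On the TMM scale both genes were highest in sh-NC replicate 2, followed by shRBM10 library A. Scaled by library size alone both were highest in library A, and in TPM sh-NC replicate 2 was the lowest sh-NC library (22.1 for CASP8 and 4.70 for CASP10). Without sh-NC replicate 2, all 3 shRBM10 libraries lay above both remaining sh-NC libraries for either gene, with log2 fold changes of 0.37 (SE 0.20) for CASP8 and 0.41 (SE 0.23) for CASP10. In that fit the groups of 46.8% of all genes did not overlap. With the GC trend removed the values changed sign, to -0.44 (SE 0.31) and -0.26 (SE 0.31). The level of these caspase genes thus had no direction that held across the alternatives.

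CFLAR had normalized counts of 888, 835 and 1012 in sh-NC and of 1270, 1038 and 996 in shRBM10. Only library C fell within the sh-NC range. Its log2 fold change was 0.27 (SE 0.22), 0.13 without sh-NC replicate 2 and -0.03 with the GC trend removed.

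**Figure D1:**
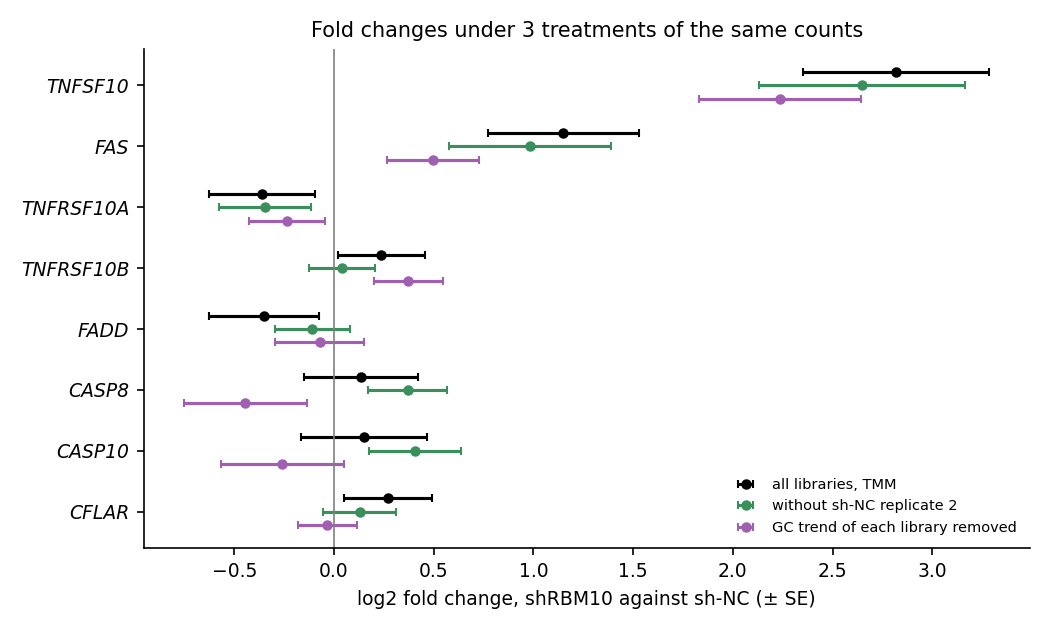
Log2 fold changes of the 8 genes, shRBM10 against sh-NC, with standard errors, for all libraries (black), without sh-NC replicate 2 (green) and with each library's GC trend removed (purple). TNFSF10 stays above 2 in all 3, and CASP8 and CASP10 lie on both sides of 0.

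None of the 8 members passed an adjusted p under 0.05 with a log2 fold change over 1 in edgeR, where 0.0158% of all genes tested (2 genes) did. DESeq2 called 1 member, TNFSF10, and 4.64% of all genes. With the same fold limit and p under 0.05 before adjustment, 2 members (TNFSF10 and FAS) were higher, where 10.1% of all genes were, and 0 were lower, where 1.53% were. The groups did not overlap, with shRBM10 higher, for the same 2 members and for 13.8% of all genes, and with shRBM10 lower for 0 members and 16.2% of all genes. Because the members were chosen on this contrast, nothing is read from these shares.

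Levels between genes were compared by the authors' TPM values, which are scaled for gene length, in the sh-NC libraries. FADD was highest, with 68.2 ± 4.83 TPM (SD, n = 3), followed by TNFRSF10B (27.6 ± 12.4), CASP8 (24.0 ± 1.59) and CFLAR (18.5 ± 4.83). TNFRSF10A (8.22 ± 2.25), CASP10 (5.10 ± 0.41), FAS (0.527 ± 0.238) and TNFSF10 (0.393 ± 0.318) came below. TNFRSF10B, with 33.9, 13.3 and 35.6 TPM, overlapped both CASP8 and CFLAR, and FAS and TNFSF10 overlapped each other. The members with the largest fold changes were thus those with the lowest levels. In shRBM10 replicate 1 TNFSF10 had 3.57 TPM and FAS 1.55, still the lowest levels of the 8 genes.

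CFLAR, CASP10 and CASP8 lie in this order on the plus strand of chromosome 2, within 171.6 kb from 201116104 to 201287711. CASP10 ends 4.04 kb before CASP8 starts. Across the 6 libraries the log2 normalized counts of CASP8 and CASP10 had a Pearson correlation of 0.954 (0.921 when scaled by library size alone), while CASP8 against the other 6 members lay between -0.41 for TNFRSF10B and 0.40 for FADD. This is a description over 6 points that share the TMM scaling and, on it, the high value of sh-NC replicate 2. The genes outside the list with the profile most like that of CASP8, among 11059 with a mean normalized count of at least 50, were BEX2 (r = 0.994), TDP1 (0.992), MSL3 (0.992), PRORP (0.990) and ATP6V1B2 (0.989), and 319 genes reached 0.9 or more. All 5 shared the highest value in sh-NC replicate 2 and the next in shRBM10 library A.

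The transcripts of CASP8 differed more between the groups than its total. The transcript table listed 20 RefSeq transcripts of CASP8 with 816 to 1189 counts a library, and shares are given as a percent of a library's CASP8 transcript counts. NM_001080124 took 8.3%, 7.5% and 6.0% in the 3 sh-NC libraries and 17.1%, 13.7% and 13.4% in shRBM10 A, B and C. XM_005246889 had no count in any sh-NC library and 110, 90 and 77 counts in shRBM10, a share of 8.9% ± 0.3 (SD, n = 3). Both were higher in every shRBM10 library than in every sh-NC library.

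In the other direction, NM_033356 took 10.6%, 7.3% and 5.6% in sh-NC against 2.1%, 0.0% and 1.2% in shRBM10. XM_005246891 took 8.2% ± 1.4 in sh-NC and 2.1% ± 0.5 in shRBM10. Both were lower in every shRBM10 library. The transcript with the largest share, NM_001080125, had 23.3% ± 0.7 in sh-NC and 22.8% ± 0.7 in shRBM10, and XM_005246892 (18.0% ± 3.0 and 16.6% ± 3.8) and XM_005246887 (13.1% ± 3.4 and 12.3% ± 2.0) overlapped as well. XM_006712790 varied most within a group, with 1.5%, 15.0% and 4.2% in sh-NC against 5.7% to 6.9% in shRBM10. The other 4 transcripts with a mean of at least 10 counts (XM_005246885, XM_005246888, NM_033355 and XM_006712789) each held 4.9% or less on average in both groups and overlapped.

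Summed over all transcripts, 22.2% of the CASP8 counts would have to move to turn the mean sh-NC shares into the mean shRBM10 shares. Any sh-NC library differed from any shRBM10 library by 24.5 to 31.8 percentage points, sh-NC libraries from each other by 19 to 23.4, and shRBM10 libraries from each other by 9.8 to 17.4. Such a separation, with every pair across groups further apart than every pair within a group, was present in 1.06% of 6880 genes with at least 2 transcripts and 100 counts in each library. CASP8 was the one of CASP8, CFLAR and TNFRSF10B that showed the separation. Its shift between the means, 22.2 points, still lay within the 19 to 23.4 by which single sh-NC libraries differed from each other. A distance between means and one between single libraries are not like measures, however. The median shift of the 6880 genes was 4.6 percentage points, but these include genes with as few as 2 transcripts, against 20 for CASP8. Of the 12 CASP8 transcripts with a mean of at least 10 counts, 2 were higher and 2 lower without overlap, where 7.02% and 6.69% of all such transcripts were. The shares come from the same libraries that chose the members, so these are descriptions too. Without 1 library in turn the shift lay between 20.8 and 25.9 points, the highest value being without sh-NC replicate 2.

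The structure of 6 of the 20 CASP8 transcripts could be read by matching RefSeq to GENCODE names, and these held 35.8% to 47.0% of the counts. NM_001080124 and NM_033356, which differed between the groups in opposite directions, have the same coding exons and code for the same 464 residues. They differ in where they start and in length, 1630 bases for NM_001080124 and 2650 for NM_033356. NM_001080124 begins at chr2:201233443, NM_001080125 begins 24.6 kb further at 201258036, and NM_033356 another 2.46 kb further at 201260500. Counts were therefore also added up by first exon, a grouping that was chosen after the transcript values were seen. As annotated, the upstream-start transcripts were 1060 to 1906 bases long, against 2930 for NM_001080125 and 2650 for NM_033356. Start and length thus cannot be told apart here.

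The upstream first exon (4 transcripts) held, of the counts with a structure, 26.5%, 26.6% and 16.8% in the 3 sh-NC libraries and 46.9%, 41.8% and 44.5% in shRBM10 A, B and C. The first exon of NM_033356 held 23.1%, 17.8% and 15.8% in sh-NC against 4.5%, 0.0% and 2.9% in shRBM10. The groups were apart in both, in opposite directions. This largely repeats the differences already given for single transcripts. NM_033356 is the only transcript of its first exon, and NM_001080124 supplied most of the upstream group in every library. Shares of the same total also move against each other. The grouping is therefore no separate result, and how often other genes show such a pattern was not tested. The first exon of NM_001080125 held 57.8% ± 8.8 in sh-NC and 53.1% ± 4.8 in shRBM10 and overlapped. The counts behind the upstream group were 100, 103 and 49 in sh-NC against 262, 170 and 166 in shRBM10.

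The bases before these 3 starts are shown because shares by first exon differed among the 6 transcripts with a structure. Whether the groups differ in the use of starts was not tested, since most CASP8 counts lay on transcripts without a structure. The bases are RefSeq windows (GRCh38.p14, plus strand), cut before the first base of the GENCODE transcript. They come from chr2:201233213-201233442, chr2:201257785-201258034 and chr2:201260286-201260499, and their GC content is 46.1%, 42.8% and 55.1%. Capitals mark TTCNNNGAA, 200 bases before the RefSeq start. The GAAANNGAAA match, 3 bases before that start, lies past the printed stretch.
Before the upstream first exon: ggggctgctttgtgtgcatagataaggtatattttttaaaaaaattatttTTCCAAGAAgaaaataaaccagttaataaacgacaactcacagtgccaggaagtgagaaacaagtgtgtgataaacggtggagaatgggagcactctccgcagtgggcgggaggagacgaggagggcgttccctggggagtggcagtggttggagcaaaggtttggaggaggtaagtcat
Before the first exon of NM_001080125: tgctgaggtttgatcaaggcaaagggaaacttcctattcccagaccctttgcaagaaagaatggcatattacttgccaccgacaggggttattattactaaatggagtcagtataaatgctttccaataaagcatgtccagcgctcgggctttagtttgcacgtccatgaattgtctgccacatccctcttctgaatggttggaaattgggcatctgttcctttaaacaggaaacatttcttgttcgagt
Before the first exon of NM_033356: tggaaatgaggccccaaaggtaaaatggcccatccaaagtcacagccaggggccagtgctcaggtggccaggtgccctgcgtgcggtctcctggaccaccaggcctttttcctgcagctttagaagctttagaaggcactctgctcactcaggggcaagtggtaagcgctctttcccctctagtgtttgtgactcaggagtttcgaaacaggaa

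**Figure D2:**
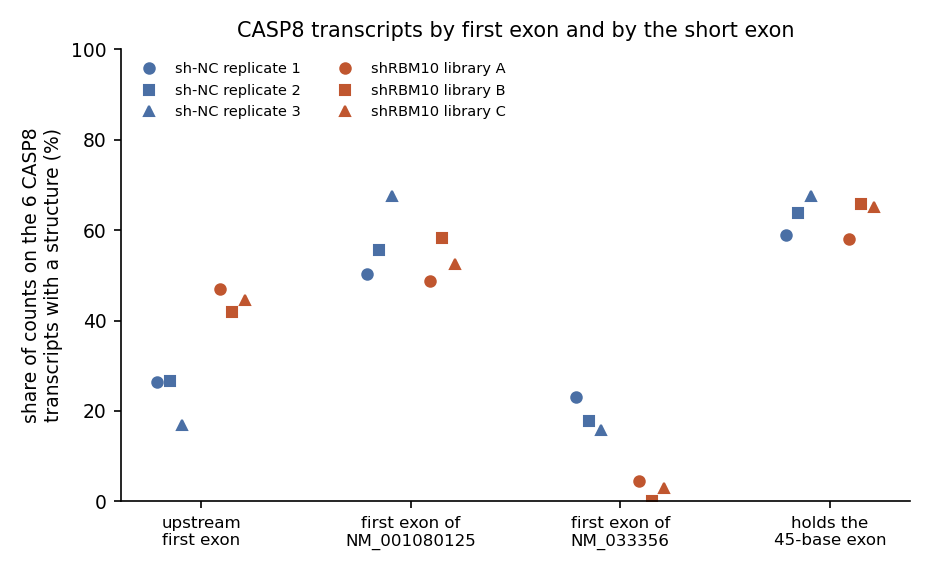
Share of the counts on the 6 CASP8 transcripts with a known structure, by first exon and by the 45-base internal exon, in each sh-NC (blue) and shRBM10 (orange) library. The upstream first exon is higher and that of NM_033356 lower in all 3 shRBM10 libraries, and the share with the 45-base exon overlaps.

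CASP8 transcripts also differ by an internal exon of 45 bases at chr2:201272898-201272942, which lies between the part that codes for the death effector domains and the protease part. NM_033355 and NM_001080124 differ by it, with 479 and 464 residues. The exon is in capitals, with 20 bases of coding sequence on either side, and the second line shows the same place in a transcript that skips it.
NM_001080125: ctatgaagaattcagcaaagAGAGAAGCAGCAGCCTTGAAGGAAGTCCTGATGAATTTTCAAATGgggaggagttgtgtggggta
NM_001080124: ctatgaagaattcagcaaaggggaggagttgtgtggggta
Transcripts with this exon made up 58.9%, 63.8% and 67.5% of these in sh-NC against 58.0%, 65.8% and 65.1% in shRBM10. The means of 63.4% ± 4.3 and 63.0% ± 4.3 (SD, n = 3) differed by less than the spread between replicates. NM_001080124 and NM_033356 both skip this exon, so an exchange between them leaves this share as it is. The starts and exons of XM_005246889 and XM_005246891, which have no structure here, were not read.

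CFLAR had 17 transcripts with 611 to 1238 counts a library. Its main transcript was NM_001308043, with shares of 44.9%, 46.0% and 45% in sh-NC against 33.9%, 37.6% and 40.8% in shRBM10. The share was lower in every shRBM10 library, while the counts themselves were 440, 281 and 504 against 420, 407 and 424. It codes for 250 residues, against 480 for the full-length NM_003879, because it ends in an exon of its own. The exon after the last one they share is given in capitals (first 40 bases) behind 20 shared bases, at chr2:201136198-201139877 for the short and chr2:201140357-201140439 for the long transcript.
NM_001308043: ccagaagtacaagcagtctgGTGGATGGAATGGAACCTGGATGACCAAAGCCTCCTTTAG
NM_003879: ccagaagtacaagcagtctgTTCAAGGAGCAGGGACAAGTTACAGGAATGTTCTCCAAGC
NM_003879 had 7 counts in shRBM10 library B and 0 in the other libraries. Only 4 of the 17 CFLAR transcripts had a structure here, and these held 38.0% to 46.7% of the counts. Whether the other transcripts code for the short or the long protein was not read, so the balance of the 2 forms was not measured. The next transcripts, XM_017005190 (5.9%, 10% and 22.1% in sh-NC and 17.8%, 26.5% and 13.9% in shRBM10) and XM_017005191 (10.4% ± 6.5 and 5.4% ± 4.1), varied several-fold within a group. NM_001127184 (9.8% ± 5.4 and 9.8% ± 0.7), NM_001351591 (9.3% ± 2.1 and 8.9% ± 1.3) and XM_017005193 (6.1% ± 0.3 and 5.4% ± 1.7) overlapped. NM_001202519 was higher without overlap, 0.5% ± 0.5 in sh-NC and 2.0% ± 0.6 in shRBM10, on 22, 16 and 27 counts in shRBM10. The other 5 transcripts with at least 10 counts on average (NM_001202515, NM_001351594, XM_017005195, NM_001202518 and XM_017005189) each held 4.1% or less on average and overlapped. The summed shift between the mean shares of CFLAR was 14.1 points. Pairs of libraries across the groups differed by 15.1 to 32.0 points, which overlapped the 17.1 to 20.5 points among sh-NC libraries and the 12.5 to 19.5 among shRBM10 libraries. Of its 12 transcripts with a mean of at least 10 counts, 1 was higher and 1 lower without overlap, against 7.02% and 6.69% of all such transcripts.

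FAS is known for an exon that codes for the membrane-spanning part, exon 6 of NM_000043 with 63 bases at chr10:89010753-89010815, whose skipping gives a soluble receptor. Its 5 transcripts shared only 13 to 57 counts a library, and a transcript without the exon, NM_152871, is not among them. The structure of only 1 of the 5, NM_000043, could be read, so use of the exon was not measured here. NM_000043 had 6, 3 and 3 counts in sh-NC against 20, 14 and 0 in shRBM10. XM_011539766 held 15, 10 and 0 counts in sh-NC against 31, 37 and 0 in shRBM10, and XM_011539767 took its place in sh-NC replicate 3 (16 counts) and shRBM10 library C (27). XM_011539764 had 8 counts in sh-NC replicate 3 only, and XM_006717819 had 0 in sh-NC and 6, 4 and 1 in shRBM10. FAS libraries of 1 group differed by up to 88.9 points in sh-NC and 96.4 in shRBM10, and pairs across the groups by 7.3 to 100 points. The shift between the means was 19.5 points.

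Of 54 other genes of the death receptor pathway, 49 were in the table and 45 were tested. None was called by edgeR (0 of 45, against 0.0158% of all genes), and DESeq2 called 1, CYLD, against 4.64% of all genes. At an unadjusted p under 0.05 with a log2 fold change over 1, 5 were higher and 0 lower, against 10.1% and 1.53% of all genes. In direction, 20 were higher and 25 lower, with a median log2 fold change of -0.17 against 0.03 for all genes. The groups did not overlap for 6 higher and 5 lower genes of the 45, against 13.8% and 16.2% of all genes. FASLG, EDAR, EDA2R, TNFRSF11B and RIPK3, a kinase of necroptosis, had no row.

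The 5 genes past the unadjusted limit were in the 2 roles with the most tested genes, 14 and 12 of the 45. At 5 of 45 they were near the 10.1% of all genes that were higher at this limit. Among the adaptors and ubiquitin ligases these were CYLD, a deubiquitinase of the TNF receptor complex, with 159 ± 48.3 normalized counts in sh-NC and 430 ± 235 in shRBM10 (log2 fold change 1.43, adjusted p = 0.153 by edgeR), BIRC2, the ubiquitin ligase cIAP1 (1.22, SE 0.42), and CUL3, a scaffold of ubiquitin ligases that act on caspase 8 (1.20, SE 0.44). Among the downstream caspases and their mitochondrial link they were XIAP, which inhibits caspases (1.08, SE 0.40), and APAF1, the scaffold that activates caspase 9 (1.59, SE 0.54, from 38.5 to 118 normalized counts). The shRBM10 spread of these genes was wide, and with the GC trend removed their log2 fold changes were 0.65 for CYLD, 0.50 for BIRC2, 0.48 for CUL3, 0.74 for XIAP and 0.81 for APAF1. In the same order, they were 1.13, 0.85, 0.76, 0.73 and 1.14 without sh-NC replicate 2. BAK1, a pore-forming protein of the mitochondrial membrane, was lower in every shRBM10 library than in every sh-NC library, as were 16.2% of all genes. Its log2 fold change was -0.95 by edgeR (SE 0.28, adjusted p = 0.153) and -0.96 by DESeq2 (adjusted p = 0.0458). Both were just under the fold limit, and BAK1 is named after its values were seen. Its log2 fold change was -0.76 without sh-NC replicate 2 and -0.68 with the GC trend removed.

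Also named were the most abundant genes of the roles, by the mean normalized count of all 6 libraries and not scaled for length. They were TNFSF15 among the ligands (0.97, SE 0.41 on the log2 scale), TNFRSF21 (DR6) among the death-domain receptors (0.46, SE 0.28), TNFRSF10D among the decoy receptors (0.08, SE 0.25), RBCK1 of the linear ubiquitin ligase (-0.44, SE 0.24), LGALS3 among the modulators (0.20, SE 0.25), BID, the caspase 8 substrate that carries the signal to mitochondria (-0.32, SE 0.34), and MLKL, the effector of necroptosis (0.46, SE 0.29). In the same order, these fold changes were 0.77, 0.14, -0.06, -0.39, 0.23, 0.13 and 0.33 without sh-NC replicate 2. With the GC trend removed they were 0.22, 0.47, -0.18, -0.12, 0.43, -0.15 and 0.45.

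**Figure D3:**
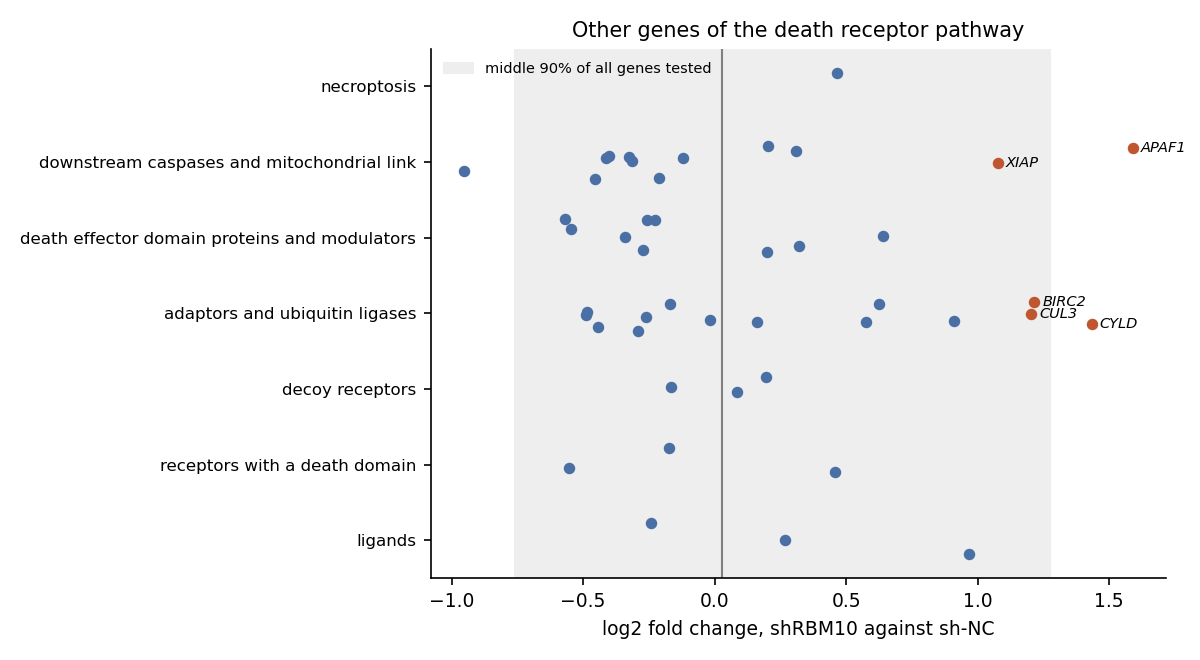
Log2 fold changes, shRBM10 against sh-NC, of the 45 tested genes of the death receptor pathway outside the 8 members, by role (vertical position within a row is arbitrary). The grey band holds the middle 90% of all genes tested (-0.76 to 1.28) and the line their median, and the 5 orange genes passed the unadjusted limit, all on the higher side.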

How the data were processed

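RNA-seq was run on 3 sh-NC and 3 shRBM10 PC9 samples. The authors deposited estimated counts per gene (16306 genes) and per RefSeq transcript (76563), and TPM values, which were used for sh-NC and shRBM10 replicate 1 to compare genes. The submitters' processing notes name hg38, and the aligner and counter are not given in the sources used here. Of the transcript counts as deposited, 41.1% were whole (10% of those above 0), so reads shared by transcripts were divided by an estimate. The 22 other value columns of the gene table and 26 of the transcript table were not used. The columns of libraries B and C match no sample title and were placed in shRBM10 by name. The labels do not say whether libraries come from separate cultures, so p-values measure the spread between these libraries, which may be technical.

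Estimated counts were rounded, filtered by filterByExpr, normalized by TMM and tested with glmQLFTest (edgeR 4.0.16, limma 3.58.1, R 4.3.3), without covariates. Calls needed an adjusted p under 0.05 and a log2 fold change over 1 either way. Alternatives were DESeq2 1.42.0, RLE factors, library size only, no filter, removal of each library's GC trend (lowess, span 0.3, 12570 genes with GC content) and leaving out each library. The steps were tested on simulated counts.

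Transcript shares used rounded counts, and structures came from GENCODE release 29. Named transcripts of CASP8, CFLAR and FAS had a mean share of 5% or more in a group or a mean of 10 counts or more. In the pathway list, genes past the unadjusted limit and the most abundant gene of each role were named. The members and lists were chosen with earlier results of these data known.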

Additional observations from a re-analysis of the deposited data

How the results depend on the processing

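No paired analysis was possible because the columns of shRBM10 libraries B and C carry no replicate number, so the groups share 1 number. The count of called members was 0 in the edgeR fit, 1 with DESeq2 and 1 without the filter on low counts (TNFSF10 both times), and 0 in each fit that left out a library. Members past the unadjusted limit were 2, or 1 with the GC trend removed and 1 to 2 without a library (1 without sh-NC replicate 2, shRBM10 library A or library B). Members whose groups did not overlap were 2 (30.1% of all genes), 3 with DESeq2, RLE factors or the GC trend removed (29.9% to 30.2% of all genes), and 3 to 5 without a library, 5 without sh-NC replicate 2 (46.8% of all genes) and 4 without shRBM10 library C (63.5%). For the members the median log2 fold change was 0.19, and -0.053 with the GC trend removed. Of the pathway list, DESeq2 called 1 gene, and past the unadjusted limit there were 5 genes, 3 with library size only, 0 with the GC trend removed and 0 to 7 without a library (0 without shRBM10 library A and 2 without sh-NC replicate 2).

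Over all genes, 2 were called, 574 with DESeq2, 0 with library size only, 31 without the filter, 1 with the GC trend removed and 0 to 23 without a library. Past the unadjusted limit were 1465 (1272 higher and 193 lower), 604 with the GC trend removed (322 higher and 282 lower) and 574 to 2143 without a library. With library size only the median log2 fold change of all genes was 0.16 against 0.03, and that of the members 0.34. Of the 5 genes with a profile most like that of CASP8, 2 were among the first 5 with library size only. The CASP8 shift was 20.8 to 25.9 points without a library. Of 88 log2 fold changes of single members, 82 moved by less than the spread between replicates, and the other 6 were CASP8, CASP10, CFLAR and FAS with the GC trend removed, TNFRSF10B without sh-NC replicate 2 and TNFSF10 without sh-NC replicate 1. All 232 differences of single transcript shares moved by less than that spread, in settings that did not include removal of the GC trend. Leaving out a library cannot move such a difference by more than that spread. Those settings could therefore not have come out otherwise and say nothing about stability. For FAS the spread itself was wide, with share SDs up to 42.9 points in sh-NC and 55.7 in shRBM10. Without shRBM10 library C the difference of XM_011539767 went from 12.4 to -19.8 points and that of XM_011539766 from -8.9 to 11.4. The cause of the differences between settings was not tested.

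FAS and TNFSF10 rest on 5 to 86 counts a library, and single transcripts of FAS on fewer, which limits what their values can show.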
